A study of Homo sapiens with 6 samples.

Results

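Metallothionein genes were followed in 6 clones of KYSE150, a long-established human line from a squamous carcinoma of the oesophagus. The 6 genes considered, MT2A, MT1E, MT1F, MT1G, MT1M and MT1X, belong to the metallothionein cluster on the long arm of chromosome 16 and were taken by RefSeq symbol from the Entrez gene IDs, out of 40448 IDs in the deposited files. MT2A, MT1E, MT1F and MT1X were listed above 0 in every library, and MT1G and MT1M were listed at 0 in all of them. The 3 mock clones (1, 4 and 5) were stable transfectants of the vector pIRES2-EGFP, and the 3 NCCRP1 clones (1, 6 and 17) were stable transfectants of an expression vector for human NCCRP1, which encodes a relative of the F-box proteins. Each library came from a single clone of the same line, and comparisons between the inserts rest on 3 clones against 3. No other treatment and no metal exposure is given in the labels. Whether a clone was grown more than once is not stated. P-values by limma, the main test below, set the group difference against the spread within groups, moderated by that of all genes tested. That spread is between these 6 libraries, each of a single clone.

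Metallothioneins are small cysteine-rich proteins that bind zinc and copper, and also cadmium, through thiolate clusters. They buffer free zinc, take up excess metal and react with oxidants. In stratified squamous epithelium, including that of the oesophagus, they are found mainly in basal, proliferating cells. Their genes are switched on by the zinc-sensing transcription factor MTF1, which binds metal response elements close to the start sites, and several of them also respond to glucocorticoids, cytokines and oxidative stress. MT2A is usually the most widely used human isoform, MT1E, MT1F and MT1X are found in many tissues, and MT1G and MT1M are more restricted and can be strongly induced.

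Among the 6 genes, promoter sequences were at hand only for MT2A and MT1X, and both are shown with matches to the metal response element. Both sequences come from RefSeq on GRCh38.p14, plus strand of chromosome 16, and run from 250 bases before the transcription start to 50 bases from it. The MT2A window is chr16:56608334-56608633 and the MT1X window chr16:56682220-56682519. Capitals mark every match, on either strand, to the core of the metal response element, spelled TGCACNC or TGCGCNC.
MT2A: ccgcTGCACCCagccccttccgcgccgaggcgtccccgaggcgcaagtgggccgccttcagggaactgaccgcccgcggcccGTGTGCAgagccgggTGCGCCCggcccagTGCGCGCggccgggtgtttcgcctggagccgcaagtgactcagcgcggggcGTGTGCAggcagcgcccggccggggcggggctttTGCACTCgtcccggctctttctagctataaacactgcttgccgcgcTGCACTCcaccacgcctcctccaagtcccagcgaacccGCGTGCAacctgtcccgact
MT1X: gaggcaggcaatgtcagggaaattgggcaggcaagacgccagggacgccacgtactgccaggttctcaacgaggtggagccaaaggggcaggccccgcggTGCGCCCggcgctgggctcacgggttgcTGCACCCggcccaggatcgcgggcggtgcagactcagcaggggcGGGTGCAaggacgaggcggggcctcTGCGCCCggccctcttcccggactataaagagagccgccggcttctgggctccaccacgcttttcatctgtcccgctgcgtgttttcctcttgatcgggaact
The MT2A window held 8 matches, 7 of them before the start, and the MT1X window held 4, all before the start. Both genes had a match at nearly the same place, from -54 to -48 in MT2A and from -53 to -47 in MT1X, counted with the start as +1. At least 1 match was present in 29.6% of the 35116 promoters in the table, at least 4 in 0.601% and at least 8 in 0.0199%. Each window also held 1 match to TATAAA on either strand, which 11.5% of the promoters had. Promoters of MT1E, MT1F, MT1G and MT1M were not analysed here. These matches describe the sequence and do not show binding in these cells.

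The values are log2 RPKM, the logarithm of read density corrected for gene length and library size. Values under 1 RPKM are listed as 0, and a 0 can also stand for a gene without an estimate, so a 0 is given only as a listed value. Depth, estimated from whole-read steps of microRNA genes, lay between about 12290000 and 18080000 reads, and 12477 to 12821 genes were above 0. The NCCRP1 transcript was at 0 in each mock clone and at 6.19, 8.07 and 6.71 in NCCRP1 clones 1, 6 and 17. The squamous origin was visible, with 10 of 11 squamous markers above 0 in every library. The exception, SOX2, was at 0 in NCCRP1 clone 6. Of the 11, 0 passed limma's test over all genes and the NCCRP1 mean was lower for 7 and higher for 4. KRT14, PKP1, KRT6A and SOX2, with the lowest p, had differences of -1.57, -0.31, -0.61 and -1.20 (limma adjusted p 0.631 to 0.791). Of the 11, 2 had an unadjusted p under 0.05, against 7.33% of all genes tested. For 1, PKP1, the groups did not overlap, against 12.8%. Fibroblast markers were listed at 0 for 7 of 8 genes, COL1A1 being the exception. Endothelial markers were at 0 throughout for 4 of 5, and CDH5 was at 0.66 in NCCRP1 clone 6 and at 0 elsewhere. Leukocyte markers were at 0 throughout for 5 of 7, PTPRC among them, while CD68, a lysosomal protein gene, ran from 5.09 to 5.94 and CSF1R from 1.99 to 2.43. Their summed RPKM was 38.3 to 54.2 for the mock clones and 49.0 to 65.3 for the NCCRP1 clones. The 2 tested leukocyte markers went opposite ways. CD68 had a difference of 0.41 with overlap (limma adjusted p = 0.656). CSF1R had a difference of -0.28 (limma adjusted p = 0.83) without overlap, 1 of 2 tested markers, against 12.8% of all genes tested. The summed RPKM of simple-epithelium and hepatocyte markers ranged over 393 to 506 for the mock clones and over 553 to 724 for the NCCRP1 clones, with ALB, APOA1 and TTR at 0. KRT18, KRT8 and KRT7 were higher in the NCCRP1 clones without overlap, by 0.68, 0.40 and 1.16 (limma adjusted p of 0.341, 0.662 and 0.716). That was 3 of 4 tested markers, against 12.8% of all genes tested, and MUC1 overlapped with a difference of -0.29. The part of these markers in the differences below was not tested.

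The 4 detected genes kept the same order of level in all 6 clones, MT1E highest, then MT2A, MT1F and MT1X. MT1E exceeded MT2A by 1.48 to 2.15 on the log2 scale. MT2A exceeded MT1F by only 0.29 in mock clone 5 and by 2.02 in NCCRP1 clone 17. The gap from MT1F to MT1X lay between 0.52 and 2.04. Since RPKM is per length of the gene model, these levels can be compared between genes, but the sequences are related. Of the 50-base stretches of the longest coding GENCODE v29 transcript, 3.59% to 14.3% were shared with other annotated genes for MT2A, MT1E, MT1F, MT1G and MT1M. For the MT1X transcript used the share was 55.8%, all with the annotated gene AC026461.1. Some MT2A stretches were also present in other annotated MT1X transcripts. How reads from such stretches were assigned is not given in the sources used here, so the levels of single genes, and the listed 0 of MT1G and MT1M, are uncertain to that extent.

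**Figure D1:**
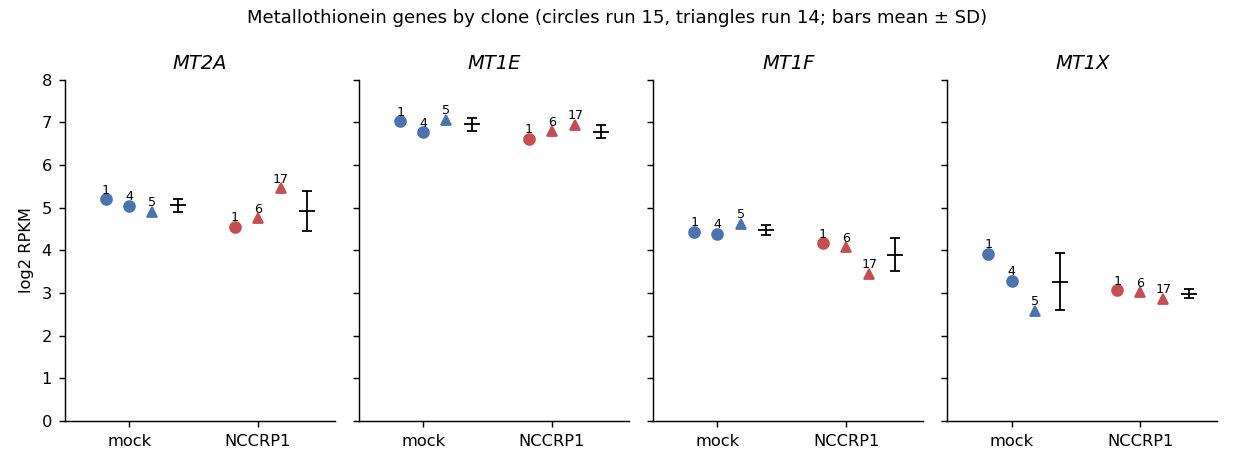
Log2 RPKM of the 4 detected metallothionein genes in each clone (points, with the clone number above; circles, run 15; triangles, run 14), with the mean and SD of each group of 3 as a bar. MT1F is the gene whose groups do not overlap, and NCCRP1 clone 17 has the highest MT2A and the lowest MT1F value.

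The NCCRP1 and mock clones overlapped for MT2A, MT1E and MT1X and did not overlap for MT1F, and none of the 4 detected genes passed the test over all genes. With limma and Benjamini-Hochberg adjustment over the 12737 genes tested, 0 of 4 passed at 0.05, against 0.102% of all genes in either direction and 0.0314% with lower values in the NCCRP1 clones. At an unadjusted p under 0.05 there was 1 of 4, MT1F, against 7.33% of all genes in either direction and 3.79% in its direction. The NCCRP1 mean was the lower one for all 4, as for 53.3% of the genes tested. The median log2 difference of the 4 genes was -0.22, and that of all genes tested was -0.016. In these bulk samples fewer expressing cells and less RNA per cell cannot be told apart.

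MT1F, a member of the MT1 subfamily, came closest to the threshold. It stood at 4.44, 4.39 and 4.62 in mock clones 1, 4 and 5 and at 4.16, 4.07 and 3.45 in NCCRP1 clones 1, 6 and 17. Every NCCRP1 clone lay below every mock clone, which was also the case, in this direction, for 7.05% of all genes tested. The group means were 4.48 ± 0.12 and 3.89 ± 0.39 (SD, n = 3 each). The difference was -0.59 (SE 0.19), or 0.664 times the mock level, with a limma adjusted p of 0.451. Its p by an exact two-sided permutation test was 0.1, which 3 clones against 3 cannot go below. The lowest value, in NCCRP1 clone 17, corresponds to 10.9 RPKM, against 21.0 to 24.6 RPKM in the mock clones. Without clone 17 the difference was -0.37 (limma adjusted p = 0.668). Mock clones 1 and 4 and NCCRP1 clone 1 were sequenced in run 15 and the other clones in run 14. Within-run differences, here and below, set NCCRP1 clone 1 against the mean of mock clones 1 and 4 in run 15. In run 14 they set the mean of NCCRP1 clones 6 and 17 against mock clone 5. A single clone thus stands on 1 side each time. Within run 15 the MT1F difference was -0.26 and within run 14 it was -0.86.

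MT2A, which metals and glucocorticoids induce, had values of 5.20, 5.05 and 4.91 in mock clones 1, 4 and 5, and of 4.55, 4.75 and 5.46 in NCCRP1 clones 1, 6 and 17. The NCCRP1 clones held both the lowest values and the highest value of the series, and the groups overlapped. In RPKM the NCCRP1 clones ran from 23.5 to 44.1, a 1.88-fold range. The means were 5.05 ± 0.14 and 4.92 ± 0.48 (SD, n = 3 each), a difference of -0.13 (SE 0.22, limma adjusted p = 0.966). Its sign depended on the clones included: without NCCRP1 clone 1 it was 0.05, and without NCCRP1 clone 17 it was -0.40 (limma adjusted p = 0.648). Within run 15 the difference was -0.57 and within run 14 it was 0.19. In run 14, NCCRP1 clone 6 at 4.75 lay below mock clone 5 at 4.91, and clone 17 at 5.46 lay above it. The positive value there thus came from clone 17 and cannot be assigned to the run.

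MT1E, the most abundant of the family here, varied least. It was listed at 7.03, 6.77 and 7.06 in mock clones 1, 4 and 5 and at 6.62, 6.79 and 6.94 in NCCRP1 clones 1, 6 and 17. The groups overlapped, and the highest clone exceeded the lowest 1.36-fold. With means of 6.96 ± 0.16 and 6.78 ± 0.16 (SD, n = 3 each), the difference was -0.17 (SE 0.16, limma adjusted p = 0.916). It was -0.28 within run 15 and -0.20 within run 14. In absolute terms MT1E lay between 98.2 and 134 RPKM, a level above that of 94.9% of the genes tested.

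MT1X, another metal-inducible isoform, differed most among clones that carried the same empty vector. It stood at 3.92, 3.28 and 2.58 in mock clones 1, 4 and 5, or 15.1, 9.71 and 5.99 RPKM, a 2.52-fold range. NCCRP1 clones 1, 6 and 17 lay close together at 3.06, 3.02 and 2.87, inside the mock range. The within-group SD of 0.48 exceeded that of 93.6% of the genes tested, whereas MT1E, with 0.16, exceeded 26.2%. The group difference was -0.28 (SE 0.28, limma adjusted p = 0.933). It was 0.05 without mock clone 1 and -0.61 without mock clone 5, still short of the threshold (limma adjusted p of 0.996 and 0.405). Within run 15 the difference was -0.54 and within run 14 it was 0.36.

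Reads behind these values were estimated from RPKM, depth and the longest coding GENCODE transcript, whose length may differ from the model the authors used. MT1E rested on about 1009 to 1559 reads per library, MT2A on 330 to 505, MT1F on 110 to 271 and MT1X on 51 to 100. At the lowest of these, counting alone gives an SD on the log2 scale of 0.05, 0.08, 0.14 and 0.20.

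Added up, the 4 genes amounted to 205, 173 and 195 RPKM in mock clones 1, 4 and 5 and to 148, 163 and 185 RPKM in NCCRP1 clones 1, 6 and 17. The groups overlapped, with means of 191 ± 16.3 and 165 ± 18.6 RPKM (SD, n = 3 each), a ratio of 0.866. The mean log2 RPKM of the 4 genes weights them equally. It was 5.15, 4.87 and 4.79 in mock clones 1, 4 and 5 against 4.60, 4.66 and 4.68 in NCCRP1 clones 1, 6 and 17. There the groups did not overlap, as was the case in this direction for 7.05% of the single genes tested. This mean includes MT1F, the only gene of the 4 whose own groups did not overlap. The share is for single genes and not for means of 4 genes, so it is no like measure. The group difference of the mean was not tested. MT1E supplied 63.1% to 68.8% of the sum in every clone. The makeup of the rest was less even. MT2A supplied 15.5% to 19.1% of the sum in 5 clones and 23.8% in NCCRP1 clone 17, while MT1F supplied 10.4% to 12.6% in the same 5 clones and 5.90% in NCCRP1 clone 17. The ratio of MT2A to MT1F was 4.04 in that clone and 1.22 to 1.69 in the others.

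**Figure D2:**
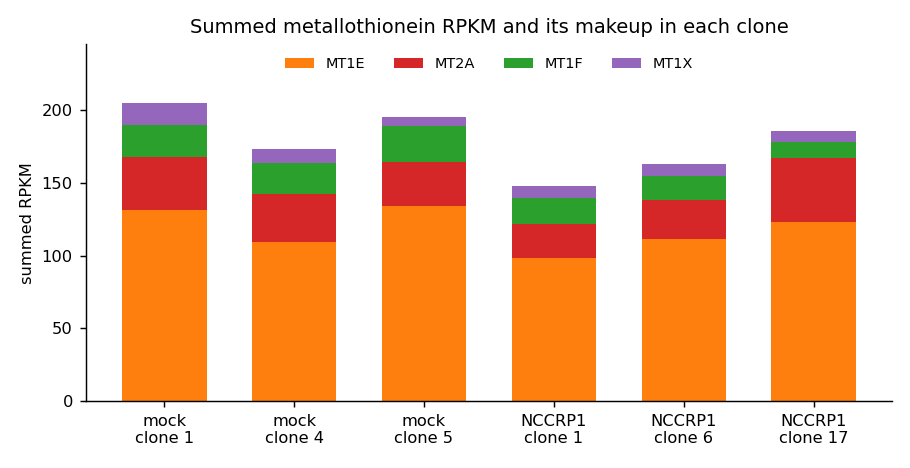
Summed RPKM of the 4 detected metallothionein genes in each clone, stacked by gene. The total lies between 148 and 205 RPKM, MT1E is the largest share in every clone, and in NCCRP1 clone 17 the MT2A share is 23.8% and the MT1F share 5.90%.

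Genes near the cluster had low values in NCCRP1 clone 17. This was known when they were chosen for description, so their values and shares are no new support for it. They were 30 protein-coding genes, the 15 nearest on each side that were listed above 0 throughout and averaged 2 or more on the log2 scale, from TENT4B to ZNF319 in RefSeq order. Relative to each gene's mean over the clones, their median was 0.12, 0.14 and 0.30 in mock clones 1, 4 and 5. It was -0.08, -0.02 and -0.48 in NCCRP1 clones 1, 6 and 17. Clone 17 had the lowest value of the 6 clones for 25 of the 30 neighbours and the highest for 0. Over all 8860 such genes it was lowest for 16.3%, and over the 480 on chromosome 16 for 32.7%.

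The neighbours' median log2 difference between NCCRP1 and mock clones was -0.36, and -0.18 without clone 17. The NCCRP1 mean was the lower one for 29 of 30 neighbours, against 53.3% of all genes tested, and for 13 the groups did not overlap, against 12.8% of all genes tested. By limma 0 of 30 passed after adjustment (lowest adjusted p 0.138) and 11 had an unadjusted p under 0.05, against 7.33% of all genes. Beside the cluster, NUDT21, a subunit of the pre-mRNA cleavage factor, averaged 5.47 ± 0.30 in the mock clones and 4.90 ± 0.30 in the others (SD, n = 3 each), without overlap. On the same side, OGFOD1, a ribosomal protein hydroxylase, and BBS2, a subunit of the ciliary BBSome, had differences of -0.26 and -0.12. Across the cluster the nucleoporin gene NUP93, the endoplasmic reticulum stress gene HERPUD1 and NLRC5, an activator of class I antigen presentation genes, had differences of -0.24, -0.46 and -0.43. Limma adjusted p for these 6 genes ran from 0.451 to 0.959.

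**Figure D3:**
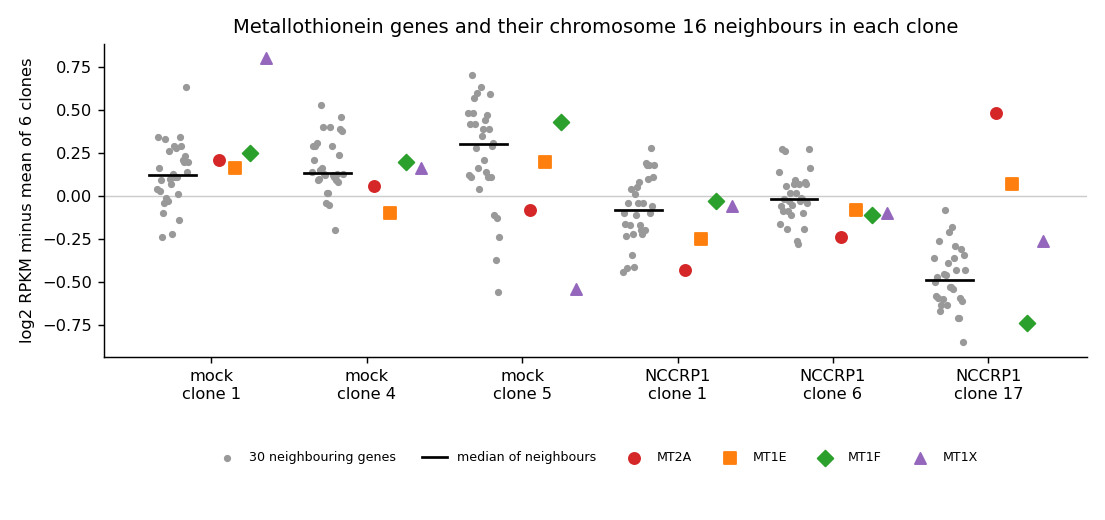
Log2 RPKM minus the mean of the 6 clones, for the 30 neighbouring genes (grey points, black line at their median) and for the 4 metallothionein genes (coloured symbols), by clone. In NCCRP1 clone 17 the neighbours centre on -0.48, with MT1F at -0.74 and MT2A at 0.48.

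MT1F had the highest correlation of the 4 genes with the neighbours' median. Its deviations of 0.25, 0.20 and 0.43 in mock clones 1, 4 and 5, and of -0.03, -0.11 and -0.74 in NCCRP1 clones 1, 6 and 17, tracked the neighbours' median with r = 0.99 over 6 clones, and with r = 0.95 without clone 17. These correlations are descriptions over few clones that share their libraries. MT2A did not follow them in clone 17, where it was 0.48 above its own mean while all 30 neighbours lay below that value. The r with the neighbours was -0.41 for MT2A over the 6 clones and 0.63 without clone 17. For MT1E it was 0.23 and 0.82, and for MT1X 0.14 and -0.21, so without clone 17 MT1E also had a high value.

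MT1E in clone 17 was 0.07 above its mean, again higher than all 30 neighbours, of which the highest, GNAO1, was at -0.08. MT1X, at -0.26, was higher than 27 of 30. MT1F, at -0.74, was higher than 1 of 30. Within the cluster the order along the chromosome is MT2A, MT1E, MT1M, MT1F, MT1G and MT1X, so MT1F and MT1E, on opposite sides of their means in clone 17, are separated among these genes by MT1M alone.

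**Figure D4:**
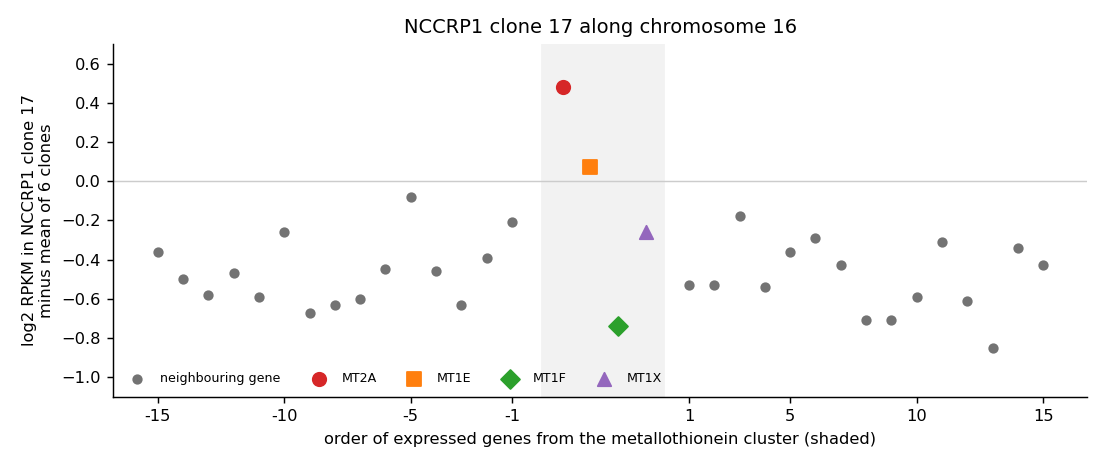
Log2 RPKM in NCCRP1 clone 17 minus the mean of the 6 clones, for the 15 expressed protein-coding genes on each side of the cluster (grey, in chromosome order) and for the metallothionein genes (coloured, shaded area, in their order). All 30 neighbours lie below 0, as do MT1F and MT1X, whereas MT1E and MT2A lie above 0.

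The neighbours' median averaged 0.19 in the mock and -0.19 in the NCCRP1 clones. Subtracting it in each clone raised the group difference of every metallothionein gene by the same amount, so the new signs follow from that common shift. MT2A went from -0.13 to 0.25, MT1E from -0.17 to 0.21 and MT1X from -0.28 to 0.10, while MT1F went from -0.59 to -0.21. After subtraction MT2A stood at 0.09, -0.08 and -0.37 in mock clones 1, 4 and 5 and at -0.35, -0.22 and 0.96 in NCCRP1 clones 1, 6 and 17. Clone 17 was thus the highest and the groups still overlapped. MT1F stood at 0.13, 0.07 and 0.13 in mock clones 1, 4 and 5 after subtraction. In NCCRP1 clones 1, 6 and 17 MT1F was at 0.05, -0.09 and -0.26. Its groups barely stayed apart, with mock clone 4 at 0.07 and NCCRP1 clone 1 at 0.05. These 2 values lie closer together than the counting SD of 0.14 estimated for MT1F at its lowest read number. How many of all genes do not overlap after such a subtraction was not determined. For MT1X, the corrected values of the mock clones spread from -0.84 to 0.67, around those of the NCCRP1 clones at -0.08 to 0.23. When the median of its own 30 nearest expressed genes was subtracted from every gene before limma, 0 of the 4 genes passed and 0 had an unadjusted p under 0.05.

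The members varied together only in part. Over the 6 clones, r was 0.62 between MT2A and MT1E and -0.42 between MT2A and MT1F, and the other 4 pairs lay between 0.04 and 0.22. Without clone 17, MT2A and MT1F had r = 0.65, MT1E and MT1F had r = 0.79 and MT2A and MT1E had r = 0.70. Without mock clone 5, MT1F and MT1X had r = 0.74. Single clones thus set several of these values.

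Of 14 further metallothionein genes and pseudogenes, 12 were listed at 0 in all libraries, among them MT1A, MT1H, MT3, which is known from brain, and MT4, the isoform of differentiating squamous epithelium. The transcribed pseudogene MT1JP was listed at 0, 1.21 and 0.06 in mock clones 1, 4 and 5 and at 0, 0 and 0.56 in NCCRP1 clones 1, 6 and 17. MT1HL1, on chromosome 1, was at 0.63 in mock clone 1 and 0.29 in NCCRP1 clone 1 and at 0 elsewhere. Both share stretches with other metallothionein genes and are uncertain.

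Genes that move or sense metals did not pass in either direction. Of the zinc exporter genes 0 of 5 tested passed (3 with a lower mean, 2 with a higher one), and of the zinc importers 0 of 10 (8 higher, 2 lower). SLC30A1, the plasma membrane exporter that MTF1 also regulates, had values of 2.42, 1.80 and 2.32 in mock clones 1, 4 and 5 and between 1.96 and 2.04 in the NCCRP1 clones. The groups overlapped (difference -0.18, SE 0.21, limma adjusted p = 0.947). SLC30A9, a mitochondrial zinc transporter gene, and SLC30A5 and SLC30A6, which encode partners in the secretory pathway, had differences of -0.29, 0.13 and 0.17. Among importers SLC39A3 had the lowest unadjusted p (0.0513), with means of 2.36 ± 0.46 (mock) and 2.97 ± 0.46 (NCCRP1; SD, n = 3 each), and a limma adjusted p of 0.683. Its difference of 0.61 was 0.10 once its own neighbours were subtracted and 0.38 without NCCRP1 clone 1. SLC39A6, SLC39A9 and SLC39A11 had differences of 0.22, 0.18 and 0.22.

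In the list of MTF1 and its partners, 0 of 9 passed, with 1 at an unadjusted p under 0.05, a share near the 7.33% of all genes. That gene was GCLC, the catalytic subunit of glutathione synthesis, at 4.10, 4.20 and 4.58 in mock clones 1, 4 and 5 and at 3.88, 3.89 and 3.95 in NCCRP1 clones 1, 6 and 17. The groups did not overlap (limma adjusted p = 0.595), as for 2 of the 9 in this list, against 12.8% of all genes tested. HMOX1, the haem oxygenase gene that cadmium also induces, had a difference of 0.37, and the coactivator gene EP300 of -0.27. Copper handling genes passed for 0 of 13, and the chaperone gene ATOX1, the importer-like SLC31A2, the copper exporter gene ATP7A and the cytochrome oxidase assembly gene SCO1 had differences of 0.32, 0.17, -0.28 and 0.16.

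**Figure D5:**
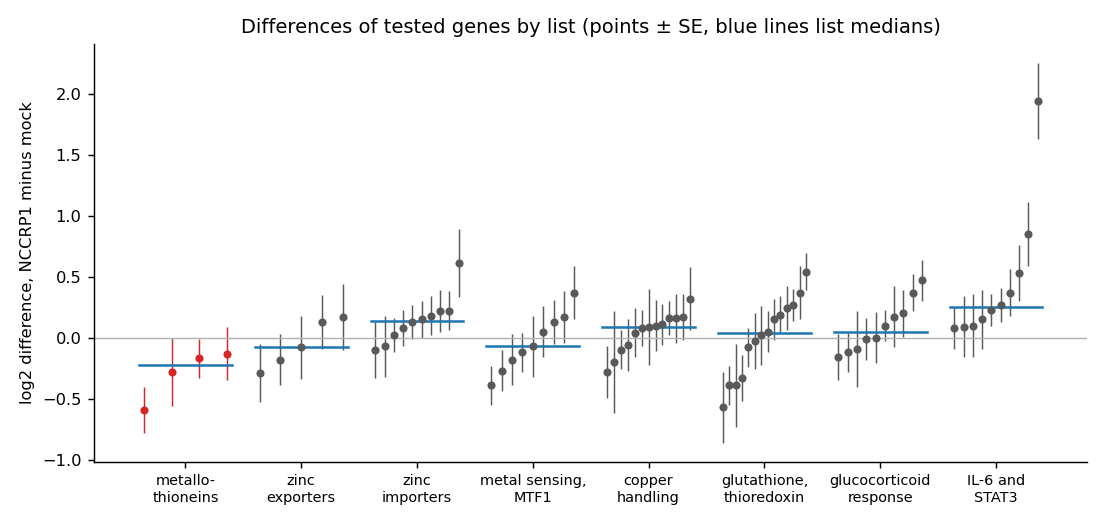
Log2 difference (NCCRP1 minus mock clones, points with SE) of every tested gene in the metallothionein list and in 7 lists of metal, redox and signalling genes, with the median of each list as a blue line. The metallothionein median is -0.22 and that of the IL-6 and STAT3 list 0.25, and none of the genes shown passed limma's test.

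Glutathione and thioredoxin genes, the other thiol buffer of the cell, passed for 0 of 14 (8 higher, 6 lower). For 4 of the 14 the groups did not overlap, against 12.8% of all genes tested. GPX4, the lipid hydroperoxidase gene, averaged 6.99 ± 0.16 in the mock clones and 7.53 ± 0.03 in the others (SD, n = 3 each), without overlap (limma adjusted p = 0.352), but its difference of 0.54 was -0.01 once its own neighbours were subtracted. GSR, which encodes glutathione reductase, had a difference of 0.27, and GPX2 was listed at 0 in every NCCRP1 clone and at 0.23, 1.25 and 0.23 in mock clones 1, 4 and 5. Glucocorticoid response genes, which share an inducer with MT2A, passed for 0 of 10, with a median difference of 0.05. The phosphatase gene DUSP1 and the transcription factor gene CEBPD did not overlap between the groups, 2 of 10 against 12.8% of all genes tested. Both were higher in the NCCRP1 clones, with differences of 0.47 and 0.37 (limma adjusted p of 0.527 and 0.615). FKBP5 and SGK1 had differences of -0.16 and 0.20.

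Cytokine signalling through STAT3 also acts on metallothionein genes. Of 10 tested genes of that list, 0 passed over all genes and all 10 had a higher mean in NCCRP1 clones (median 0.25), as did 5950 of the 12737 genes tested. At an unadjusted p under 0.05 there were 3, against 7.33% of all genes, and for 3 the groups did not overlap, against 12.8%. IL6 read 2.86, 3.71 and 2.38 in mock clones 1, 4 and 5 while NCCRP1 clones 1, 6 and 17 had 4.59, 5.15 and 5.02. The groups did not overlap (limma adjusted p = 0.071). Without mock clone 4 its difference of 1.94 became 2.30 and passed (limma adjusted p = 0.00173). IL6 passed in none of the other alternatives, where the limma adjusted p reached 0.343 (without mock clone 1). LIF, another cytokine of this family, SOCS3, the feedback inhibitor, and the receptor gene IL6ST had differences of 0.85, 0.53 and 0.37.

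Genes whose profile over the 6 clones was most like the mean of the 4 detected metallothionein genes were sought among 9628 genes that were above 0 in all libraries and averaged 2 or more on the log2 scale. That mean was highest in mock clone 1 and lowest in NCCRP1 clone 1. The 8 highest Pearson r, from 0.973 to 0.984 over 6 clones, belonged to LYPD1, the histone H3 gene H3C4, ZNF414, the endophilin gene SH3GL1, the activin receptor gene ACVR2B, DVL2, which encodes a Wnt pathway scaffold, MYBL2, a cell cycle transcription factor gene, and PPP6R1. None of these lies on chromosome 16. LYPD1 had values of 4.05, 3.77 and 3.53 in mock clones 1, 4 and 5 and of 3.21, 3.31 and 3.39 in NCCRP1 clones 1, 6 and 17. With so many genes and 6 clones, r of this size is a ranking and no sign of a relation. Genes of chromosome 16 had a median r of 0.30 with the profile, and all ranked genes one of -0.01.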

How the data were processed

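Total RNA was depleted of ribosomal RNA and sequenced on Ion Torrent libraries, per the labels' protocols. The aligner is not given in the sources used here, and the submitters' processing notes name hg19 and bedtools 2.25.0. The header of each deposited file reads RPKM, but the authors' deposited values are log2 RPKM: as powers of 2 times transcript length in kilobases they summed to 1130000 to 1150000 per library, and natural logarithms would give at least 11550000. Depth was the step between 10000000 and 20000000 reads that put the largest share of microRNA values under 8 reads within 0.02 of whole reads (25.0% to 37.9%, against 4% for a step not fitted and 8.5% to 11.2% for log2 of RPKM plus 1). Multiples or fractions of this depth are not excluded, and too few values were whole for a count model. Run numbers come from the names of the deposited data.

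Genes above 0 in at least 3 libraries (12737) were compared by limma 3.58.1 under R 4.3.3 (group as the sole term, trended and robust, two-sided). The same fit was also run on simulated data. Symbols of 37997 IDs came from RefSeq on GRCh38.p14, used for gene order without coordinates, since the files use hg19. GC content and length came from GENCODE v29 (97.6% of tested genes). The members and the 14 lists were chosen with earlier results of these data known. The text names every member, other metallothioneins above 0, 4 genes per list by lowest p (markers of other cell types only where a result turns on them), the 3 nearest neighbours on each side and the 8 genes most alike. The alternatives were log2(RPKM + 1), 2 other filters on low values, 2 scalings, robust=FALSE, the run as a term, the median of each gene's own 30 nearest expressed protein-coding genes subtracted (members count among each other's), GC and length trends removed (loess span 0.5) and each clone left out.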

Additional observations from a re-analysis of the deposited data

How the results depend on the processing

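Across the 16 alternatives, 0 of the 4 metallothionein genes passed limma's test, with 0 to 2 at an unadjusted p under 0.05 and limma adjusted p for MT1F from 0.263 to 0.810. The median log2 difference of the 4 genes was -0.22, and with neighbours subtracted 0.16. With single clones left out it ran from -0.36 (without mock clone 5) to -0.10 (without mock clone 1). With neighbours subtracted, MT2A was at 0.27, MT1E at 0.23 and MT1X at 0.09, against 0.07 for MT1JP, 0.16 for OGFOD1, 0.28 for BBS2, 0.13 for NUP93 and -0.01 for GPX4. With single clones left out, MT2A ran from -0.40 to 0.05, MT1X from -0.61 to 0.05, MT1E from -0.27 to -0.09 and MT1F from -0.72 to -0.37. Other ranges that crossed 0 were MT1JP from -0.45 to 0.16 (mock clone 4), SLC30A6 from -0.08 to 0.50 and SLC30A5 from -0.04 to 0.36 (mock clone 1), ATOX1 from -0.01 to 0.49 and BBS2 from -0.26 to 0.04 (mock clone 5), and MUC1, a simple-epithelium marker, from -0.80 to 0.02 (NCCRP1 clone 1), each with the clone whose omission turned the sign. The other values of the named genes kept their sign, and IL6 passed without mock clone 4. The causes were not tested. The ratio of summed RPKM was 0.815 to 0.912 with clones left out and 0.850 without MT2A.

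Over all genes 13 passed. This count was 4 with log2(RPKM + 1), 3 with no filter, 7 with genes above 0 in all libraries, 5 with robust=FALSE, 2 with the run as a term, 8 with neighbours subtracted and 4 with the GC trend removed. It was 0 without mock clone 5 by limma (1363 at an unadjusted p under 0.05) and up to 29 without NCCRP1 clone 1. No paired analysis was possible because the groups share only clone number 1, which does not pair samples. MT1G and MT1M, listed at 0, were not compared.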
